A study of Mus musculus with 6 samples.

Results

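Here 8 genes known as targets of the transcription factor p53 were followed across 6 lines of mpkCCD cells, a mouse cell line of the kidney's cortical collecting duct. The set was named as 10 genes, Trp53, which encodes p53, and its targets Cdkn1a, Mdm2, Bax, Ccng1, Sesn1, Sesn2, Trp53inp1, Dram1 and Zmat3. In the annotation used here, 18 of 45037 probe sets were named for 8 of them, and none for Trp53 or Bax, which were not analysed here. Each gene was read from its probe set of highest mean signal. The set was proposed because Dram1 is low in clone 2, so the difference of Dram1 between clone 2 and the other lines is given as a description, without a test. The 7 other genes were chosen by name as p53 targets, with earlier results of these data known.

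The 6 lines were the original cells and clones 2, 3, 9, 10 and 11, each measured on 1 Affymetrix array as MAS5 signal, the scanner software's background-corrected brightness on a linear scale. All lines, clone 2 included, had received dDAVP, an analog of vasopressin, at 0.1 nM over 5 days, and no line without dDAVP or with DNA damage was among them. The labels describe clone 2 as not expressing aquaporin 2 (AQP2, gene Aqp2), the water channel that vasopressin controls in principal cells, and the 5 other lines as expressing it. Each clone is 1 line, so what sets clone 2 apart from the others cannot be told apart from its AQP2 status, its culture or its array. As general background, mpkCCD cells come from a mouse that carried the large T antigen of a simian polyomavirus under a pyruvate kinase promoter. T antigen binds p53 and limits its action as a transcription factor. Whether it was present in these lines was not measured here.

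p53 is kept scarce in unstressed cells by Mdm2, a ubiquitin ligase that is itself a p53 target. When DNA is damaged or oncogenes are active, p53 accumulates, binds DNA as a tetramer and switches on genes that halt the cell cycle, repair DNA, restrain growth signalling, promote autophagy or kill the cell. In kidney tubules the pathway is best known from acute injury, where Cdkn1a and other targets are induced.

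Of 11 principal cell markers, 10 lay above the signal filter, and of 5 measured kidney epithelial markers all 5 did. The 11 principal cell markers summed to 12431 in clone 2 and to between 21481 and 28488 in the other lines. Without Aqp2, which defines the groups, the 10 others summed to 12272 in clone 2 and to between 19783 and 21910 in the other lines. Over the 9 of these that lay above the filter, the median log2 difference of clone 2 was -0.60, against -0.03 over all probe sets. The 5 kidney epithelial markers were all lower in clone 2 as well, with a median of -0.30. They summed to 68686 there and to between 79593 and 89861 in the other lines. Their part in the values of the members was not tested. All 6 measured fibroblast markers and all 6 measured endothelial and leukocyte markers were below the median of the array in every line. Of the 5 intercalated cell markers measured, 4 were also below it, as were 5 of 6 proximal tubule markers and 3 of 5 for Henle's loop and the distal convoluted tubule. Array medians lay between 79.6, in clone 2, and 88.6. Aqp2 had a signal of 159 for clone 2, 1066 for clone 10, 1698 for clone 3, 3822 for the original cells, 4683 for clone 9 and 6578 for clone 11.

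The promoters of the members are shown first, because the best known feature of a p53 target is a response element in its DNA. A p53 element is a pair of decamers, stretches of 10 bases that follow the p53 decamer consensus. RefSeq promoter windows of assembly GRCm38.p6 were at hand for 6 of the 8 genes, in 8 windows. The 250 bases before each gene start were searched. The consensus is its own reverse complement, so both strands were covered at once. A pair of adjacent decamers with at most 1 mismatch over the 20 bases was found before Ccng1 and before the upstream start of Cdkn1a. Such a pair is rare, with 25 of 32851 windows (0.0761%) holding one. At least 1 exact decamer was found in those 2 windows, before Mdm2 and before 1 of the 2 starts of Sesn1. Of all windows, 7.13% held one. The upstream Cdkn1a window held 2, the first of them starting at -73 from the gene start, outside the pair. The windows of Dram1, Sesn2 and the other starts of Sesn1 and Cdkn1a held none. Elements elsewhere, such as in the introns where several targets are known to carry theirs, were not searched. In the lines below the pair is in capitals, or the decamer where there was no pair, on the gene's own strand. The first Cdkn1a decamer begins before its line, and its end is in lower case there. Dram1 is shown by the last 60 bases before its start, with no match.
Ccng1 (chr11:40755442-40755501, minus strand): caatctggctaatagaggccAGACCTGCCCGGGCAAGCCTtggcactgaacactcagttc
Cdkn1a, upstream start (chr17:29090908-29090967, plus strand): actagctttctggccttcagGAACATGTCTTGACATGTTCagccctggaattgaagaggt
Mdm2 (chr10:117710915-117710964, minus strand): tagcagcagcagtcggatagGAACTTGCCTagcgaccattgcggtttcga
Dram1 (chr10:88357076-88357135, minus strand): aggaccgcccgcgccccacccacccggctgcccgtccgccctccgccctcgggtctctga
Between the end of the match and the gene start lie 175 bases in Ccng1, 31 in Cdkn1a and 176 in Mdm2. A match describes these letters and does not show binding.

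Dram1, a lysosomal membrane protein that p53 uses to promote autophagy, was the member that set clone 2 apart. Its signal was 18.2 for clone 2, 267 for clone 3, 284 for clone 11, 287 for the original cells, 415 for clone 10 and 447 for clone 9. Clone 2 lay below every other line, which is the difference for which Dram1 was chosen. Clone 2 was outside the range of the 5 other lines, above or below it, for 53.6% of all probe sets tested. The 5 expressing lines stayed within 1.67-fold of each other. Their mean was 340 ± 84.1 (SD, n = 5). The signal of clone 2 was below the offset of 18.8 used here, and without detection calls it was not shown to exceed background, so no fold is given. On its array the clone 2 value ranked at the 25.5th percentile, whereas Dram1 lay at or above the 64.8th percentile in every other line. On the scale of log2(signal + 18.8), which is used for all tests and understates differences of low signals, clone 2 was at 5.21 and the other lines averaged 8.46, a difference of -3.25. Fewer cells with the transcript and less transcript per cell cannot be told apart. Dram1 has a single named probe set, so no other probe set could be set beside this value.

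**Figure D1:**
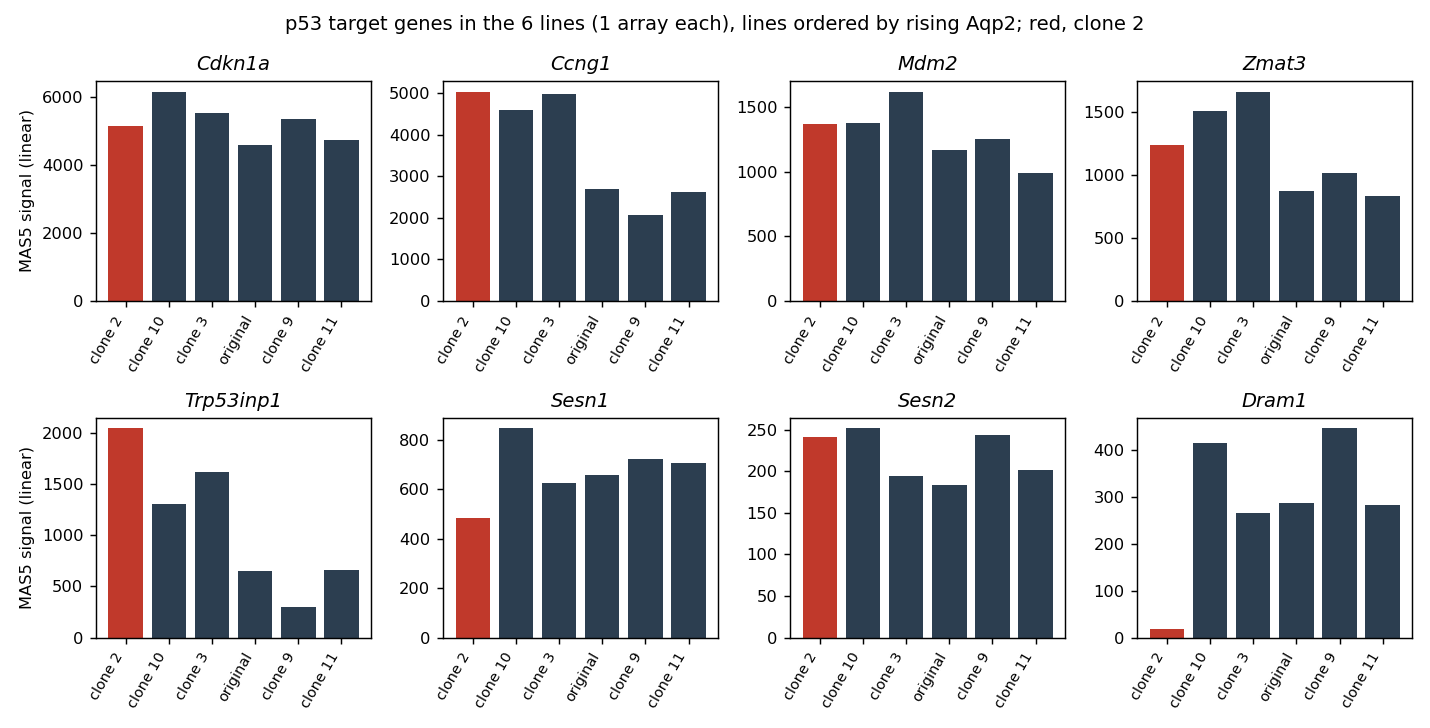
Signal of the 8 measured p53 targets in each line, 1 bar per array, on linear axes that start at 0, with lines in the order of rising Aqp2 and clone 2 in red. Dram1 is near 0 in clone 2 alone (18.2 against 267 to 447), Cdkn1a is level, and Ccng1 and Trp53inp1 are high in clones 2, 3 and 10 and low in the original cells and clones 9 and 11.

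Cdkn1a encodes p21, the inhibitor of cyclin-dependent kinases through which p53 halts the cell cycle, and it was among the steadiest members. Its signal was 4569 for the original cells, 4725 for clone 11, 5135 for clone 2, 5352 for clone 9, 5514 for clone 3 and 6148 for clone 10. Clone 2 lay inside the range of the other lines, which spanned 1.35-fold. The second probe set of Cdkn1a placed clone 2 inside that range as well, at 672 against 551 to 849.

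Mdm2, the ubiquitin ligase that closes the p53 feedback loop, had a signal of 987 for clone 11, 1164 for the original cells, 1255 for clone 9, 1368 for clone 2, 1372 for clone 10 and 1619 for clone 3. Clone 2 was thus in the middle of the order. A second probe set placed it between the same lines, at 863, with 634 in the original cells as the lowest and 1176 in clone 3 as the highest value, while the remaining one stayed below the signal filter.

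Ccng1, cyclin G1, a p53 target that recruits a phosphatase to Mdm2, divided the lines more widely. The signal was 2058 for clone 9, 2634 for clone 11, 2700 for the original cells, 4602 for clone 10, 4984 for clone 3 and 5043 for clone 2. Clones 2, 3 and 10 were close together at the top, and the 3 other lines stood apart below them. The 2 further probe sets of Ccng1 kept this division, with 1105 to 1580 in clones 2, 3 and 10 against 604 to 727 in the rest, and with 1366 to 1573 against 676 to 811. Only in the brightest probe set did clone 2 exceed all other lines.

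Trp53inp1, a nuclear protein induced by stress that helps p53 promote cell death and autophagy, had the widest spread of the 8 apart from Dram1. Its signal was 300 for clone 9, 649 for the original cells, 664 for clone 11, 1311 for clone 10, 1624 for clone 3 and 2048 for clone 2. The highest of the 5 expressing lines exceeded the lowest by 5.42 times. Among those 5 lines its SD on the log2 scale, 0.94, was larger than that of 98.8% of probe sets past the filter, and that of Ccng1, 0.55, larger than that of 95.7%. The dimmer probe set of Trp53inp1 also had clones 2, 3 and 10 on top, at 104 to 146, and the rest at 45.5 to 71.3, but clone 2 was the lowest of the former there.

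Zmat3, an RNA-binding zinc finger protein that takes part in growth restraint by p53, showed the same 3 lines on top with a smaller gap. Its signal was 833 for clone 11, 869 for the original cells, 1016 for clone 9, 1233 for clone 2, 1506 for clone 10 and 1661 for clone 3. Clone 2 lay inside the range of the others.

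The sestrins Sesn1 and Sesn2 are stress proteins that restrain the growth kinase complex mTORC1. Sesn1 had a signal of 483 for clone 2, 626 for clone 3, 656 for the original cells, 704 for clone 11, 721 for clone 9 and 846 for clone 10. Clone 2 was below every other line in this probe set and in a second one (281 against 318 to 463), was inside the range in another (396 against 359 to 779) and was above it in one below the signal filter (95.4 against 34.3 to 76.1). The log2 differences of clone 2 in the 3 probe sets past the filter were all negative, at -0.53, -0.39 and -0.27. Sesn2 had 184 for the original cells, 195 for clone 3, 202 for clone 11, 242 for clone 2, 244 for clone 9 and 252 for clone 10, a span of 1.37-fold with clone 2 inside it. Since each line has 1 array, neighbours in these orders cannot be separated by a spread of their own.

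The question that follows from Dram1 is whether other p53 targets are also low in clone 2. None of the 7 other members passed the test (limma, adjusted p under 0.05 over 22518 probe sets), where 2.49% of all probe sets did, and 1 of the 7 had an unadjusted p under 0.05, where 20% of all probe sets had. Both counts are near the background and are no result about the 7 genes. The differences were positive for 5 genes and negative for 2, with a median of 0.12 against -0.03 over all probe sets, and the 95% intervals ran from -0.98, the lower bound of Sesn1, to 2.95, the upper bound of Trp53inp1.

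For Cdkn1a the log2 difference of clone 2 was -0.03, with a 95% interval from -0.40 to 0.35 (SE 0.167, limma adjusted p = 0.949), and its sign turned with median centring of the arrays (0.07) and without clone 10 (0.03). For Mdm2 it was 0.11, from -0.42 to 0.65 (adjusted p = 0.828). For Sesn2 the interval ran from -0.40 to 0.73 and for Zmat3 from -0.69 to 0.93. These 4 intervals include 0 and their bounds run from -0.69 to 0.93, so differences inside them were not detectable with 1 array of clone 2. Sesn1 came nearest to Dram1 in direction, with a difference of -0.53 (SE 0.196, interval -0.98 to -0.09, limma adjusted p = 0.177). The largest difference among the 7 was in the opposite direction to Dram1. It was that of Trp53inp1, at 1.38 (SE 0.697, interval -0.20 to 2.95, limma adjusted p = 0.306), 0.86 with the mean of its probe sets. Ccng1 had 0.65 (interval -0.29 to 1.60, limma adjusted p = 0.419). For 3 of the 7 genes, Ccng1, Trp53inp1 and Sesn1, clone 2 was higher or lower than all other lines, as it was for 53.6% of all probe sets tested.

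**Figure D2:**
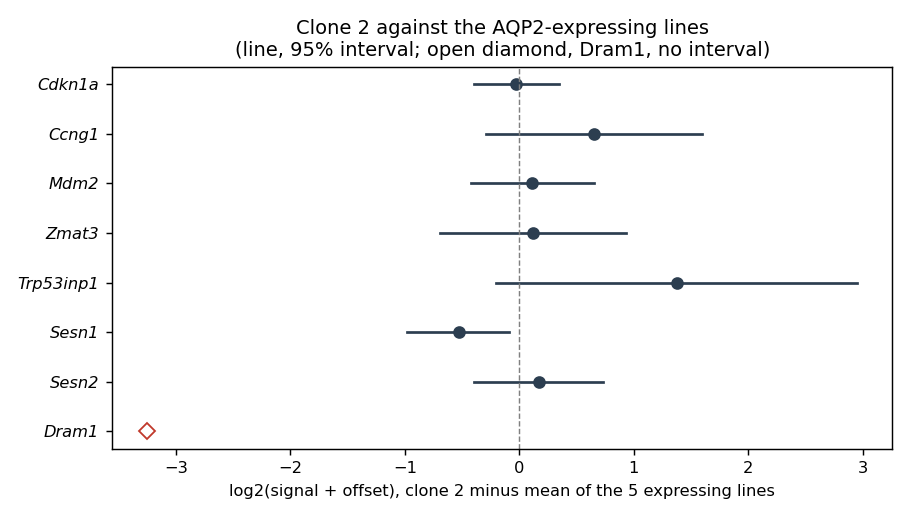
Difference of clone 2 from the mean of the 5 expressing lines on the log2(signal + 18.8) scale for each member, with limma's 95% interval as a horizontal line. The 6 intervals other than that of Sesn1 cross 0, and Dram1 (-3.25) is drawn as an open diamond without an interval because it was chosen for this difference.

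The study set out to find transcripts that follow Aqp2 among the lines, so the members were also set against the Aqp2 level of each line. Of the 7 genes tested, 6 had a negative slope and 1 a positive one, with a median of -0.07 log2 units per log2 unit of Aqp2 against 0.00 over all probe sets. None passed the test (limma, adjusted p under 0.05), where 1.76% of 22517 probe sets did, while 2 of the 7 had an unadjusted p under 0.05, where 19.9% of all probe sets had, so that this count too is near the background. These were Trp53inp1, with a slope of -0.43 (SE 0.107, interval -0.67 to -0.18, limma adjusted p = 0.0757), and Ccng1, with -0.23 (SE 0.0628, interval -0.38 to -0.09, limma adjusted p = 0.0878). The 3 lines highest in both genes were the 3 lines lowest in Aqp2, and clone 9, the lowest in both, had the second highest Aqp2. Both slopes stayed negative without clone 2, with higher adjusted p-values. They were then -0.67 for Trp53inp1 (adjusted p = 0.29) and -0.45 for Ccng1 (adjusted p = 0.213), over 5 lines. Zmat3 went from -0.12 (adjusted p = 0.357) to -0.38 (adjusted p = 0.225) without clone 2, Mdm2 from -0.07 to -0.19, and Cdkn1a from -0.03 to -0.13. None of these values passed the test.

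Dram1 and Sesn1 had positive slopes with all 6 lines, 0.58 for Dram1, given without a test, and 0.08 for Sesn1 (interval -0.03 to 0.20, limma adjusted p = 0.388). Both came from clone 2, since without it each slope was -0.06.

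**Figure D3:**
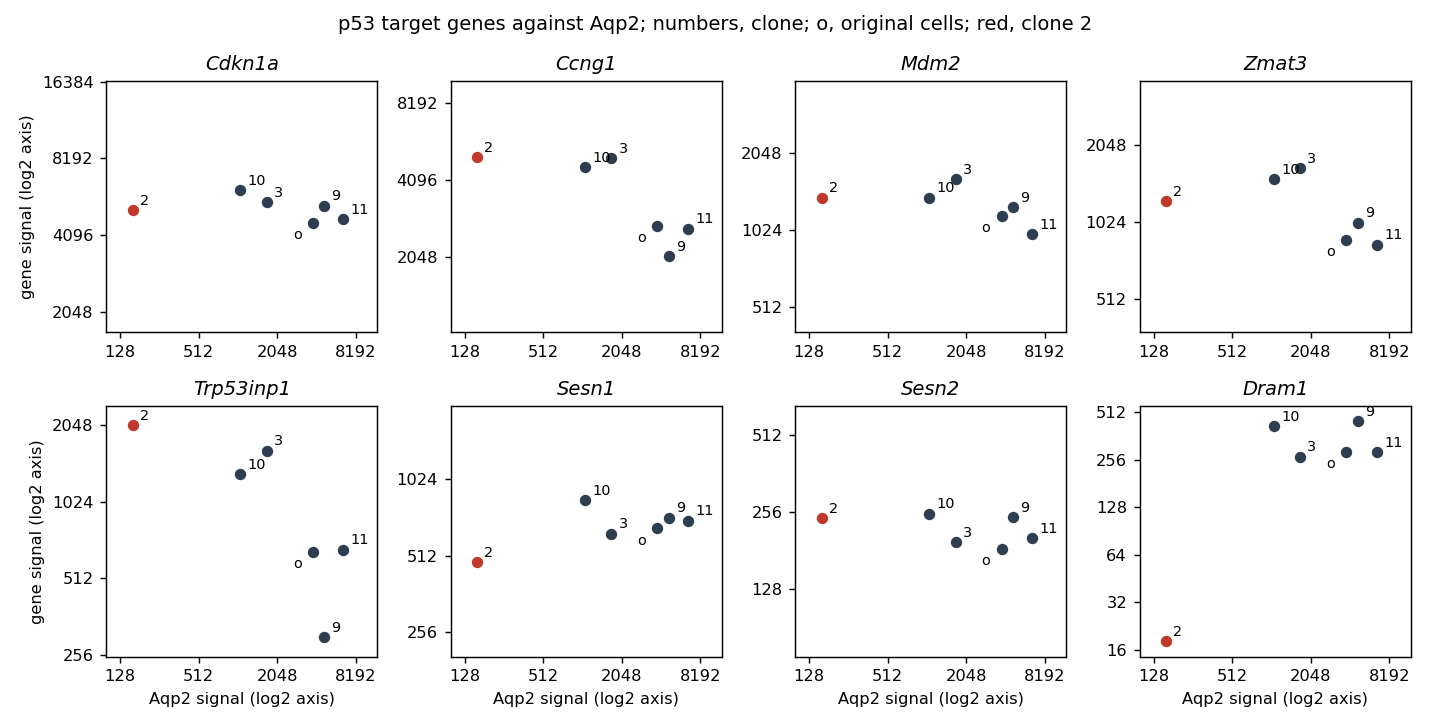
Signal of each member against the Aqp2 signal of the same line, both on log2 axes, 1 point per array with its clone number, o for the original cells and clone 2 in red; the vertical axis spans a wider range for Dram1. Trp53inp1 and Ccng1 lie lower in the lines with more Aqp2 (slopes -0.43 and -0.23, neither past the test), while the Dram1 slope comes from clone 2 alone.

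Among themselves the members fell into different patterns. Over the 6 lines the log2 values of Ccng1 and Trp53inp1 had a Pearson correlation of 0.98, those of Mdm2 and Zmat3 0.92, and those of Cdkn1a and Zmat3 0.84. Of the 21 pairs without Dram1, 17 were positive. Of the 7 pairs with Dram1, 2 were positive, namely Sesn1 at 0.90 and Cdkn1a at 0.19, and these values include the clone 2 level for which Dram1 was chosen. Over the 5 expressing lines alone, 5 of the 7 pairs with Dram1 were positive. The correlation with Sesn2 was then 0.94, against -0.19 over all lines, with Sesn1 0.76, with Cdkn1a 0.58, with Zmat3 0.11 and with Mdm2 0.07, while Ccng1 had -0.25 and Trp53inp1 -0.43. The points share arrays and parent cells, so these values describe the lines and were not tested.

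Each expressing line was also compared with the 4 others, leaving out clone 2, so that all 8 members could be tested. No member passed in any of these 5 comparisons (limma, adjusted p under 0.05), where the share of probe sets that did was 0.573% for clone 9, 0% for clone 10, with 882 at an unadjusted p under 0.05, and 0.00444%, a single probe set, for each of clone 3, clone 11 and the original cells. In clone 9, 2 of the 8 members had an unadjusted p under 0.05, where 12.8% of all probe sets had, and in the 4 other comparisons none of the 8 had, where the share was 2% to 4.61%. Those in clone 9 were Trp53inp1, with a difference of -1.65 (SE 0.463, limma adjusted p = 0.207), and Ccng1, with -0.79 (SE 0.342, limma adjusted p = 0.382). In clone 9 Dram1 stood at 0.51 (interval -0.09 to 1.1), so the line with the least Trp53inp1 and Ccng1 had the most Dram1. All 8 members were above the mean of the 4 other expressing lines in clone 10 (median difference 0.35), and all 8 were below that mean in clone 11 (median -0.27) and in the original cells (median -0.25), where the median over all probe sets was 0.00 in each. The difference of Sesn1 in clone 11 was only -0.01. Over the 5 expressing lines 22 of 28 pairs of members were positively correlated, so the 8 directions in a line are not independent. These comparisons also share their arrays, and the directions of single members were not past the test.

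Other genes of the pathway were taken from 7 lists, and their counts are to be read against the 2.49% of all probe sets called in clone 2 and the 1.76% called for the slope. At these shares a count of 0 or 1 in a list of this size is near the background. In clone 2 the median difference was -0.16 over 19 regulators of p53 past the filter. Trp63 and Trp73, the relatives of p53 in that list, were not past the filter. The median was 0.01 over 10 targets listed under cell cycle arrest, 0.09 over 13 under cell death and 0.04 over 9 under DNA repair. Not every gene in a list acts as its heading says, so these medians mix roles. The median over all probe sets was -0.03. Usp7, which removes ubiquitin from p53 and Mdm2, had 3609 in clone 2 against 4042 ± 257 (SD, n = 5) in the expressing lines, and Trp53bp1, a DNA damage response protein, had 2722 against 3565 ± 312. Plk2, a polo-like kinase, had 4233 against 5128 ± 943, and Siva1, an apoptosis protein, 5523 against 5187 ± 391. Pcna, the sliding clamp of DNA replication and repair, had 21739 against 23405 ± 2312, and Rev3l, the catalytic subunit of a translesion polymerase, 3101 against 4798 ± 530 (limma adjusted p = 0.0792). Clone 2 was within the range of the other lines for Plk2, Siva1 and Pcna and below all of them for Usp7, Trp53bp1 and Rev3l. Ckap2 and Tnfaip8, named from the same lists and given in the closing section, were also outside that range in clone 2. Ckap2 was above it (3578 against 2298 to 3023) and Tnfaip8 below it (2873 against 3672 to 4160). Clone 2 was outside the range for 53.6% of all probe sets tested, so such values are common and are no result about these genes.

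Among 17 targets in metabolism and other roles, 1 rose in clone 2 and 16 did not pass the test (median -0.06). The gene that rose was Ndrg1, a stress-induced gene that also responds to low oxygen, with 15932 in clone 2 against 9269 ± 1127 (SD, n = 5). This is 0.79 on the log2 scale, with an SE of 0.156 and an adjusted p of 0.0397 by limma. Its adjusted p was 0.0674 when clone 3 was left out, 0.0583 for clone 10 and 0.0863 for the original cells, 0.0971 with no signal filter and 0.111 without the variance trend.

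Dram1 acts in autophagy, so 25 other genes of autophagy and the lysosome were examined. None passed the test in clone 2, with 15 positive and 10 negative differences and a median of 0.13. Lamp1, a lysosomal membrane glycoprotein, had 11293 in clone 2 against 11027 ± 1315 (SD, n = 5), and Gabarap, a protein of autophagosome membranes, had 8596 against 7650 ± 613. Against Aqp2, 1 of the 25 passed. Ctsl, the lysosomal protease cathepsin L, fell with rising Aqp2 by a slope of -0.23 (SE 0.0446, limma adjusted p = 0.0439). Its signal was 8890 in clone 2 and 3189 to 5553 in the others. The adjusted p was 0.475 if clone 2 was dropped, 0.0538 for clone 3, 0.117 for clone 11 and 0.0546 for the original cells. It was also above the threshold with no signal filter (0.0972), quantile normalization (0.0514), no variance trend (0.113) and the mean of its probe sets (0.0711).

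p53 also holds down proliferation genes, through p21 and the repressor complex DREAM. Of 25 such genes, 1 rose in clone 2, none fell and 24 did not pass, with 22 positive differences and a median of 0.32. Ccne2, cyclin E2, which drives entry into DNA replication, had 1326 in clone 2 and 592 to 750 in the other lines (log2 difference 0.97, SE 0.193, limma adjusted p = 0.0393). Its adjusted p was 0.0551 when clone 3 was left out, 0.0655 for clone 10, 0.0702 for clone 11 and 0.0711 for the original cells, rising to 0.0664 if no signal filter was used and to 0.0737 without the variance trend. Among the expressing lines the same list had a median difference of 0.28 in clone 9 (22 of 25 positive) and of -0.29 in clone 10 (1 of 25 positive), with no gene past the test in either. In clone 10 all 8 p53 targets were above the mean of the other expressing lines. In clone 9, 4 targets were above that mean and 4 below (median 0.01). Cdkn1a was at 0.04 there, and Ccng1 and Trp53inp1 were at their lowest. In clone 11 and in the original cells all 8 targets were below that mean, with 17 of 25 list genes positive in each. In clone 3, 5 of the 8 targets were above it, with 8 of 25 list genes positive. In clone 2, 5 of the 7 targets other than Dram1 were above the mean of the expressing lines, with 22 of 25 list genes positive. Cdkn1a was at -0.03 there and Sesn1 at -0.53. Ccng1 and Trp53inp1 were highest in clone 2 only in their brightest probe sets. A link between the targets and the list was not tested.

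**Figure D4:**
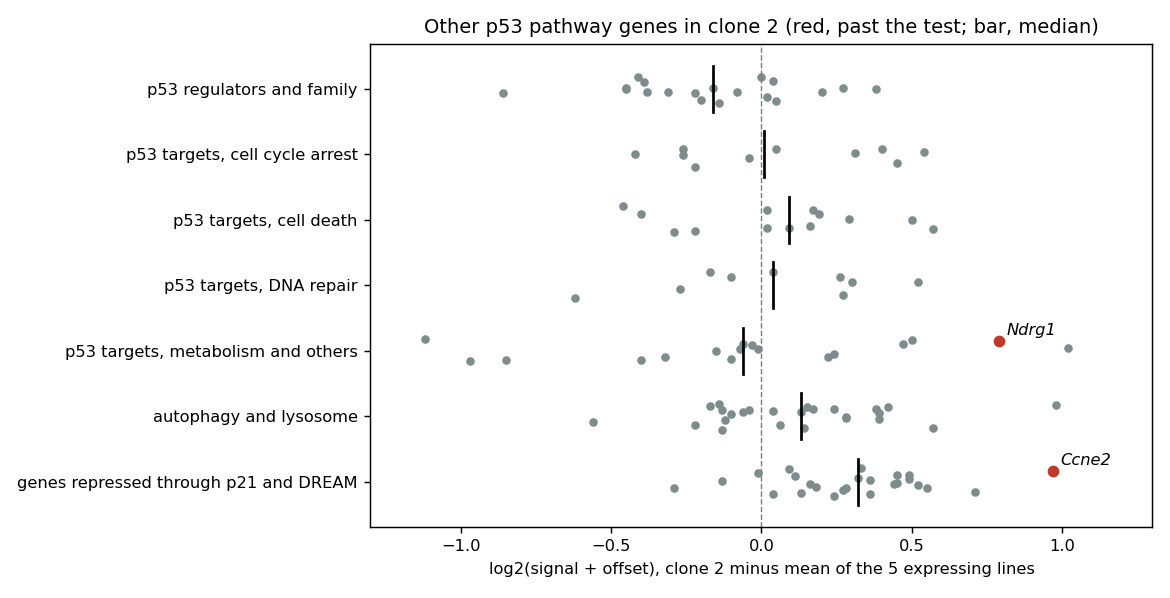
Difference of clone 2 from the mean of the 5 expressing lines, log2(signal + 18.8) scale, 1 point per gene past the filter in 7 lists of p53 pathway genes, with a bar at each median and genes past the test in red. Medians lie between -0.16 and 0.32, and Ndrg1 and Ccne2 are the 2 genes past the test.

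Position was examined because Dram1, Mdm2 and Sesn1 all lie on chromosome 10. The median difference of 514 chromosome 10 genes in clone 2 was -0.24, against 0.01 over all genes, while the 3 members on it had -3.25 (Dram1), -0.53 (Sesn1) and 0.11 (Mdm2). Chromosome 17, which holds Cdkn1a (-0.03), had a median of -0.37, chromosome 3, which holds Zmat3, -0.20, chromosome 11, with Ccng1, 0.12, and chromosome 4, with Sesn2 and Trp53inp1, 0.19. The part of these shifts in the values of the members was not tested.

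The 4 nearest measured genes on each side of Dram1 were read as well. Clone 2 was below every other line for 5 of the 6 that were past the filter, namely Nup37, Washc3, Gnptab, Sycp3 and Chpt1. For Washc3 the margin was narrow, at 1357 against 1360 in clone 11. Over all probe sets tested, clone 2 was higher or lower than all other lines for 53.6%. That share counts both directions, while the count of neighbours is of lower values only, so they are unlike measures. The share lower than all other lines was not computed, and the count among the neighbours was not tested. Gnptab, a phosphotransferase that tags lysosomal enzymes and the nearest neighbour on one side, had 357 in clone 2 against 653 ± 136 (SD, n = 5; log2 difference -0.81, limma adjusted p = 0.147). Washc3, a subunit of the endosomal WASH complex and the nearest on the other, had 1357 against 1533 ± 197 (-0.16). Further out, the differences were -0.46 for Nup37, a nuclear pore protein, 0.03 for Parpbp, -0.70 for Sycp3, a meiotic protein, and -0.35 for Chpt1, an enzyme of phosphatidylcholine synthesis. None of these 6 passed the test. Pmch (-0.05) and Mybpc1 (-0.18) were below the signal filter.

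**Figure D5:**
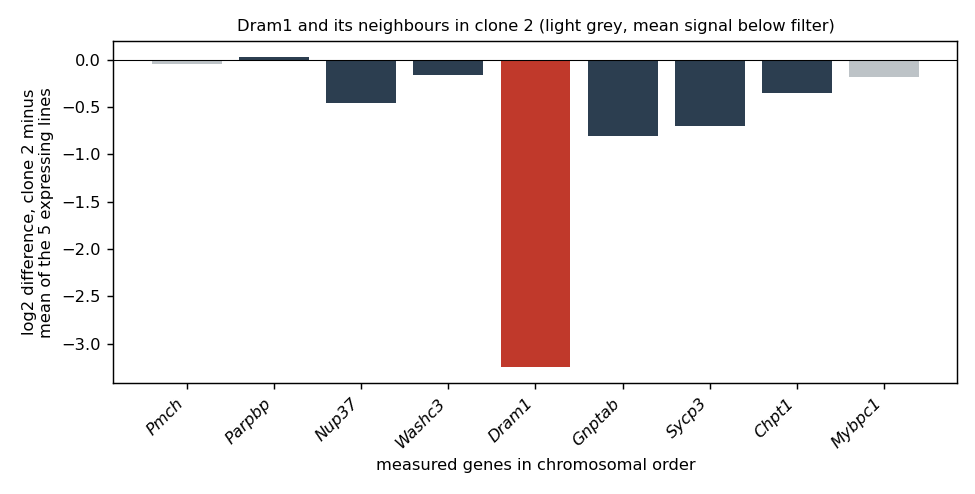
Log2(signal + 18.8) difference of clone 2 from the mean of the 5 expressing lines for Dram1, in red, and the 4 nearest measured genes on each side in chromosomal order, not to genomic scale, with genes below the signal filter in light grey. The neighbours lie between -0.81 and 0.03, against -3.25 for Dram1.

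The genes whose pattern was most like that of Dram1 over the 6 lines, by Pearson correlation of log2 values among 10341 other genes, were 1700025G04Rik, Gata3, Dsel, Ppp1r9a and Apc2, at 0.995 to 0.997. All 5 were lowest in clone 2, so 1 line lies far from the rest in each pair of genes. Gata3, a transcription factor of the collecting duct, had 2109 for clone 2 and 3680 to 3975 in the others, and 1700025G04Rik had 108 against 558 to 809. Apc2 also lies on chromosome 10. For Cdkn1a over the 5 expressing lines they were Tubgcp2, Afap1, Fbxl5, Tnfrsf23 and Socs2, at 0.985 to 0.999, over only 5 points.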

How the data were processed

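Arrays of 6 lines were used. The deposited files hold linear signal intensities of the MAS5 kind, and the submitters' processing notes name Affymetrix Expression Console 1.1. Every array had a mean of 500 without its lowest and highest 2%. The 64 control probe sets were left out. Symbols came from the platform annotation, updated through gene identifiers to a table of GRCm38.p6. No detection calls were used.

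Tests used log2(signal + 18.8), with the 25th percentile of all values as offset. Probe sets with a mean signal above 85.5, the median, entered limma 3.58.1 under R 4.3.3 (eBayes with a mean-variance trend, two-sided, Benjamini-Hochberg adjustment over all of them, threshold 0.05). All 8 members passed this filter. The residual degrees of freedom were 4 for clone 2 and the slope and 3 for single expressing lines. A lone line was assumed to vary like the rest, and p-values measure only the spread between arrays.

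The members and lists were chosen with earlier results of these data known. Genes named from the lists were up to 3 past the test per comparison or, in clone 2, the 2 of highest mean signal where none passed. Of these Ckap2 and Tnfaip8 are given in the closing section. The planned correlation of Trp53 with its targets was not run, since Trp53 was not analysed here. Alternatives were the offset, filter, normalization, variance model, probe set choice and each line left out.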

Additional observations from a re-analysis of the deposited data

Results flagged for a closer look

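Among 39 named genes examined for a line far from the rest of the expressing group, 1 had such a line, where chance gives about 1 in 20. Tnfaip8, a regulator of cell death, had a signal of 4160 in clone 9 against 3672 to 3799 in the 4 other expressing lines, a gap of 0.74 of the group's range (critical value 0.71). Clone 2 had 2873.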

How the results depend on the processing

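No member passed the test in any comparison under any alternative, and of 227 values of tested members 224 kept their direction, with a lowest adjusted p of 0.0589 (limma; Trp53inp1 slope without clone 9). The 3 that reversed were the clone 2 difference of Cdkn1a, 0.07 with median centring and -0.08 to 0.03 over the left-out lines (0.03 without clone 10), and the Sesn1 slope, -0.06 to 0.11 (-0.06 without clone 2). The untested Dram1 slope ran from -0.06 without clone 2 to 0.7 without clone 11, and its clone 2 difference ran from -4.19 with no offset to -2.73 with a doubled one. The cause was not tested, except that the offset acts on low signals by construction. With the 75th percentile filter Dram1 and Sesn2 were not tested.

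The number of probe sets called in clone 2, 560, lay between 154 without the original cells and 943 without clone 9, and was 210 with no filter. For the slope, 397 became 0 without clone 11, 3 without clone 2, 648 without clone 10, 51 with no filter and 1 without the variance trend. For clone 9, 129 became 38 to 238. Clone 10 had 0 throughout, and clone 3, clone 11 and the original cells had at most 13, 19 and 2. Of 232 medians, of the lists and of the members without Dram1, 178 moved by no more than their spread over left-out lines. The largest move was 0.15. No paired analysis was possible because the groups share only 1 replicate number, given in accession order. The number of arrays limits the precision.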

Other observations

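Ckap2, a spindle protein, had a signal of 3578 for clone 2 and 2298 to 3023 in the expressing lines, and it did not pass the test (log2 difference 0.45, limma adjusted p = 0.194).

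The list of p53 targets in cell death, of which 13 genes were past the filter, had a median difference of 0.16 for clone 3, 0.23 for clone 10, -0.20 in clone 9 and -0.18 for clone 11, each against the other expressing lines, and of -0.02 in the original cells. The list of targets under cell cycle arrest, 10 genes, had medians of -0.04, 0.00, 0.21, -0.19 and 0.12 in the same order of lines. No gene of either list passed the test in these comparisons.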
